A study of Mus musculus with 8 samples.

Results

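Itgae, Itga1, Itgb7, Itga4, Cd69 and Rgs1 are 6 genes linked to whether lymphocytes stay in a tissue or leave it, and their transcripts were followed in CD45+ leukocytes of the mouse submandibular gland and its draining lymph nodes. They were picked by symbol, as 6 of the 32285 genes in the count matrices, and read in 3 classes of cells. Cd4-only T barcodes carried Cd3 transcripts (Cd3d, Cd3e or Cd3g) with Cd4 and no Cd8a or Cd8b1. Cd8-only T barcodes carried Cd3 with Cd8a or Cd8b1 and no Cd4. NK barcodes carried Ncr1, Klrb1c or Klre1 and no Cd3, and none of the 6 genes entered these rules.

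An integrin is a surface receptor made of an alpha and a beta chain that binds other cells or matrix. Itgae encodes the alpha E chain (CD103), which pairs with the beta 7 chain of Itgb7 and binds E-cadherin on epithelium. Itga1 encodes the alpha 1 chain (CD49a), which pairs with the beta 1 chain and binds collagen IV, and Itga4 encodes the alpha 4 chain, which pairs with beta 1 or beta 7 and binds VCAM-1, fibronectin or MAdCAM-1. Cd69 encodes a membrane protein that keeps the exit receptor S1PR1 off the cell surface, and Rgs1 encodes a regulator that shortens signalling by chemokine receptors. In barrier tissues, Itgae, Itga1 and Cd69 are textbook markers of resident memory T cells, and Cd69 is also induced within hours of activation.

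Per the labels, the expression samples came from mice of the SS genotype and from control mice, at around 12 weeks, as 1 sample from the gland and 1 from the nodes of each genotype, out of 4 mice per genotype. The labels do not say what SS stands for, name no transgene or strain, and do not state whether mice were pooled. The gland was digested with warm collagenase while the nodes were only dispersed, and all samples were sorted for CD45. The expression matrices are named C1, C2, C3 and C4, and no label ties these names to a genotype or a tissue, so no SS against control and no gland against node comparison was made and no test was run. Each library's value is given with an exact 95% interval (Poisson for levels, Clopper-Pearson for shares), which covers counting error only and not the spread between animals. The intervals of levels do not cover the spread between barcodes either.

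The libraries held 48439860 (C1), 44798843 (C2), 77819179 (C3) and 37902916 (C4) unique molecular identifiers (UMIs), and 5616, 5067, 8532 and 5957 barcodes passed the limits of 500 or more UMIs, 300 or more genes and no more than 10% mitochondrial UMIs. Pairs of libraries shared 31 to 85 of these barcode sequences. The Cd4-only T class held 264, 756, 1275 and 1636 barcodes from C1 to C4, the Cd8-only T class 211, 2294, 5417 and 1108, and the NK class 946, 250, 19 and 21. Of their markers, Lck was found in 90.2% to 97.9% of the T barcodes and Klrd1 in 92.0% to 100% of the NK barcodes, while the B cell gene Pax5 reached at most 0.314% and the macrophage gene Adgre1 at most 0.379%. Other genes of those cell types were found more often: Cd22, a B cell receptor gene for sialic acid ligands, in 18.5% of Cd8-only T and 4.71% of Cd4-only T barcodes of C3, and Lyz2, the lysozyme gene of myeloid cells, in 7.14% of Cd4-only T and 4.40% of Cd8-only T barcodes of C2. Their part in the values of the 6 genes was not tested. Trbc2 was found in 26.3% to 42.9% of NK barcodes although Cd3e was at 0 there by rule. The NK class was mixed and was not divided further. From C1 to C4 the granzyme gene Gzmc was found in 58.7%, 32.8%, 0% and 4.76% of its barcodes. Eomes, which encodes a transcription factor, was found in 53.8%, 74.4%, 78.9% and 52.4%. RNA of the gland itself differed between libraries: 17 salivary genes summed to 44697 counts per 1000000 UMIs of the class (CPM) in Cd8-only T barcodes of C1 and 24605 in C2, but to 0.118 in C3 and 3.90 in C4. Early response transcripts, which rise with handling, differed too and are given with Cd69.

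The promoters of Itga1 and Itga4 are printed because these are the alpha chains with an entry in the RefSeq promoter table and they ordered the libraries differently. Each is the 250 bases before the annotated start, 5′ to 3′ on the gene's strand, in build GRCm38.p6: Itga1 from chr13:115101965-115102214 (minus strand) and Itga4 from chr2:79255176-79255425 (plus strand). Capitals mark letters that match CACCC, or GGGCGG, or TGTGGT on either strand.
Itga1: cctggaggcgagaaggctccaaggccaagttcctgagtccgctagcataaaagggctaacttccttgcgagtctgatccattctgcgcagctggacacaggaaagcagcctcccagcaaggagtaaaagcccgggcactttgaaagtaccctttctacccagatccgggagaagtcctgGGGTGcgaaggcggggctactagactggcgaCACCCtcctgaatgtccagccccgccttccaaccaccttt
Itga4: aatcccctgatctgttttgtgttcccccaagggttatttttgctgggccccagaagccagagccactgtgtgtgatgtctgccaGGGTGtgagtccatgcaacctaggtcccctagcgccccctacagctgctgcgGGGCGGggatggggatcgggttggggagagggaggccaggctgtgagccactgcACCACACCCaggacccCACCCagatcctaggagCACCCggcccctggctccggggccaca
The Itga1 window held CACCC 2 times and neither GGGCGG nor TGTGGT. The Itga4 window held CACCC 4 times, GGGCGG 1 time and TGTGGT 1 time, with the last overlapping a CACCC match. Both windows held the E-box letters CANNTG 1 time, not capitalised, and neither held TGANTCA or TATAAA. Of 32851 mouse promoter windows of the same length, 52% held CACCC, 32.7% GGGCGG, 14% TGTGGT, 66.2% CANNTG, 6.75% TGANTCA and 12.4% TATAAA, so these matches are common letters and describe the windows only. Entries matched for 3 of the 6 genes.

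Itgae (ENSMUSG00000005947, chr11:73090505-73147449) was high in NK and Cd8-only T barcodes of C1 and low in Cd4-only T barcodes of every library. Its Cd8-only T level was 234 CPM for C1 (95% interval 210 to 260), 38.6 for C2 (35.4 to 42.1), 4.69 for C3 (4.12 to 5.33) and 44.3 for C4 (40.0 to 48.9). C1 lay above all others and C3 below all others, whereas the intervals of C2 and C4 overlapped. NK barcodes held 300.04 CPM of Itgae for C1 and 92.4 for C2, and no UMI was found among the 19 barcodes of C3 or the 21 of C4, where 3 UMIs would have been 25.95 and 26.3 CPM. The Cd4-only T levels were 15.1, 20.4, 5.57 and 8.49 CPM from C1 to C4. The Cd4-only values of C1 and C2 overlapped, as did those of C3 and C4.

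At equal depth, after each barcode was thinned to 3000 UMIs and shallower ones were left out, Itgae was found in 36.9%, 9.16%, 1.10% and 11.3% of the Cd8-only T barcodes from C1 to C4. Without thinning the shares were 51.2%, 11.3%, 3.12% and 20.4%. The median depths were 6363, 5092, 8941 and 7332.5 UMIs, and thinning left out 8, 230, 77 and 22 barcodes. B barcodes, which should lack Itgae, held it in 4.31% of 116 barcodes (C1), 0 of 692 (C3, upper limit 0.532%) and 0.430% of 1860 (C4), at median depths of 7312.5, 5270 and 3894 UMIs. The Cd8-only shares of C1, C3 and C4 therefore lay above those of the B barcodes. By contrast, the unthinned Cd4-only T share of C1, 5.68% (3.21% to 9.20%), overlapped that of the C1 B barcodes (1.41% to 9.77%). In C1 the top 10% of Cd8-only T barcodes held 40.9% of the class's Itgae UMIs. The gene Haspin lies inside Itgae and strand was not compared. Haspin stood at 4.11, 9.66, 10.8 and 5.16 CPM in Cd8-only T barcodes, an order unlike that of Itgae.

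Itga1 (ENSMUSG00000042284, chr13:114958079-115101964) was highest in C1 and C2, and in the T classes it had the widest spread between libraries of the 6. NK barcodes held 256 CPM for C1 (245 to 269) and 201 for C2 (181 to 222), and 2 and 5 UMIs were found for C3 and C4. The Cd8-only T level of Itga1 was 145 CPM for C1 (126 to 166), 30.7 for C2 (27.9 to 33.8), 1.77 for C3 and 1.03 for C4. Its Cd4-only T level was 66.8 CPM for C1 (53.9 to 81.9), 7.64 for C2 and 0.585 for C4, and none of the 1275 barcodes of C3 held a UMI, where 3 UMIs would have been 0.355 CPM. C1 exceeded C2 in all 3 classes, and C3 and C4 did not differ beyond their intervals in any class.

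At equal depth Itga1 was found in 48.7% of NK barcodes of C1 and 38.9% of C2 (71.0% and 67.6% unthinned), with 29 and 21 barcodes left out. Thinned Cd8-only T shares were 32.02%, 7.99%, 0.449% and 0.276% from C1 to C4, and 50.2%, 12.2%, 1.38% and 0.722% unthinned. The thinned B barcodes of C3 and C4 held Itga1 in 0.310% and 0.0635%, with intervals that overlap those of the Cd8-only T barcodes, so the C3 and C4 shares are read as background. The thinned Cd4-only T share was 13.7% for C1 and 1.98% for C2. The gene Pelo lies inside Itga1, where strand was likewise not compared. Pelo stood at 16.5, 15.5, 16.2 and 17.7 CPM in Cd4-only T barcodes, a range far narrower than that of Itga1.

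Itgb7 (ENSMUSG00000001281, chr15:102215994-102233405) varied least of the 6 in the T classes. Cd4-only T barcodes held 430.4 CPM for C1 (397 to 466), 283 for C2, 305 for C3 and 305 for C4. Cd8-only T barcodes held 348, 154, 200.5 and 248 CPM, and NK barcodes 166 for C1 and 134 for C2. C1 was the highest library in both T classes and C2 the lowest, though in Cd4-only T barcodes C2 overlapped C3 and C4. At equal depth 61.1%, 32.1%, 44.1% and 50.7% of Cd8-only T barcodes held Itgb7 (82.9%, 43.2%, 76.5% and 79.4% unthinned), against 1.32% of 76 epithelial barcodes in C1 and 2.67% of 75 in C2, whose median depths were 1863.5 and 2546 UMIs. Thinned Cd4-only T shares of Itgb7 were 66.7%, 48.3%, 53.0% and 59.2%.

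Itga4 (ENSMUSG00000027009, chr2:79255426-79333114) ordered the libraries in another way, with C2 at the top of both T classes. Its Cd8-only T level was 256 CPM for C1 (231 to 283), 445 for C2 (434 to 456), 66.6 for C3 (64.4 to 68.9) and 110.1 for C4 (103 to 117). Cd4-only T levels of Itga4 were 261.5, 423, 271 and 119 CPM, where C1 and C3 overlapped. NK barcodes held 82.5 CPM for C1 and 116 for C2, but 329 for C3 and 683 for C4, which rest on 38 and 78 UMIs. NK barcodes thus ran opposite to Itga1, whose NK values were highest in C1 and C2.

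Itga4 was unevenly spread among the Cd8-only T barcodes of C3, where the top 10% of barcodes held 86.5% of its UMIs. At equal depth 47.3%, 65.8%, 11.0% and 25.5% of Cd8-only T barcodes held Itga4 (63.0%, 80.0%, 17.3% and 45.2% unthinned), against 3.95% and 6.67% of epithelial barcodes in C1 and C2. Thinned Cd4-only T shares of Itga4 were 40.2%, 65.7%, 43.8% and 28.4%. In C3, Cd4-only and Cd8-only T barcodes of the same library therefore differed, at 271 and 66.6 CPM. The gene Cerkl overlaps the end of Itga4, and UMIs of the overlap cannot be told apart without strand.

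Cd69 (ENSMUSG00000030156, chr6:129267324-129275375) was found in every class and library. Cd4-only T barcodes held 917 CPM for C1 (868 to 969), 483 for C2, 292.6 for C3 and 261 for C4. The Cd8-only T levels were 744, 456, 352 and 298 CPM, and the NK levels 523 for C1 and 323.5 for C2. C1 was the highest library in each class, and neighbouring values in the T classes did not overlap. The thinned shares of Cd8-only T barcodes were 75.9%, 60.4%, 56.9% and 47.7%, those of Cd4-only T barcodes 77.9%, 62.0%, 48.2% and 43.3%, and epithelial barcodes held Cd69 in 7.89% (C1) and 5.33% (C2). Cd69 is also transcribed in B cells, where it stood at 473, 257, 219.9 and 257 CPM.

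Rgs1 (ENSMUSG00000026358, chr1:144244669-144249104) separated C1 and C2 from C3 and C4 in each class. NK barcodes held 5176 CPM for C1 (5122 to 5230), 3804 for C2, 605.5 for C3 (70 UMIs) and 849.9 for C4 (97 UMIs). Its Cd4-only T levels were 3226, 1575, 297 and 169.7 CPM. Its Cd8-only T levels were 1655, 1349, 114 and 84.7 CPM. At equal depth 84.7%, 81.1%, 23.7% and 18.1% of Cd8-only T barcodes held Rgs1, and 92.0%, 81.7%, 37.4% and 24.4% of Cd4-only T barcodes, against 21.1% and 8.0% of epithelial barcodes in C1 and C2, unthinned. Rgs1 was not limited to lymphocytes: macrophage barcodes stood at 5891, 3287 and 407 CPM in C1, C2 and C3.

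**Figure D1:**
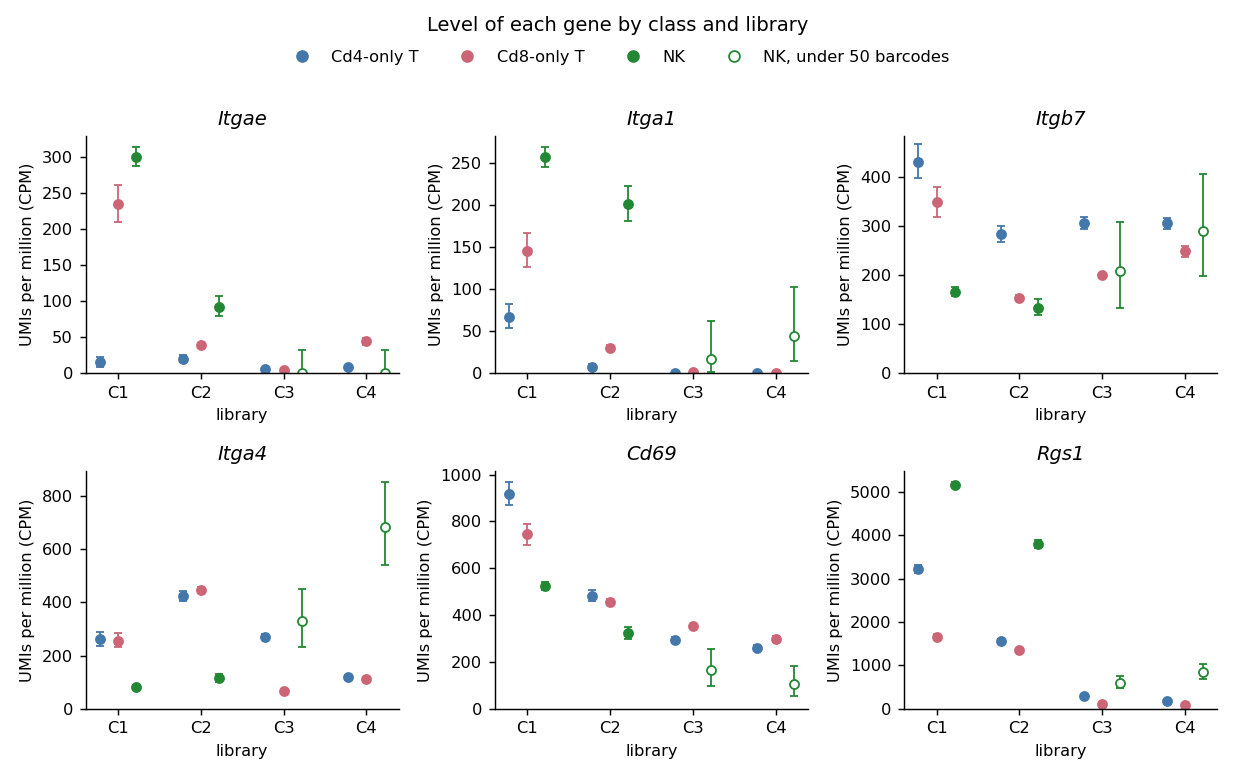
Level of the 6 genes in CPM (vertical axis, separate scale per gene) in each library (horizontal axis), with points for Cd4-only T, Cd8-only T and NK barcodes and bars for the exact 95% Poisson interval; open points are NK classes under 50 barcodes. Itgae and Itga1 are highest in NK barcodes of C1 (300.04 and 256 CPM), Itga4 peaks in C2 of both T classes, and Rgs1 is high in C1 and C2 of every class.

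Free RNA was measured in barcodes with at least 50 and under 200 UMIs. There Rgs1 stood at 734 CPM (C1) and 303 CPM (C2), and Itga4 at 181 CPM (C2). If all salivary UMIs in a class were free RNA, free RNA would make up at most 10.7% of the UMIs of Cd8-only T barcodes in C1 and 7.54% in C2. On that basis free RNA could give at most 78.6 CPM of Rgs1 and 2.98 CPM of Itga1 in Cd8-only T barcodes of C1, against measured levels of 1655 and 145 CPM.

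The spread between libraries was set against all genes by the ratio of the highest to the lowest library, over genes with at least 50 UMIs in the highest library and libraries with at least 50 barcodes, with a lowest library of 3 UMIs at least. In Cd4-only T barcodes 2 of the 6 genes reached 4-fold, where 11.3% of 8166 genes did. They were Itga1 and Rgs1. Itga1 was 188-fold higher in C1 than in C3, where no UMI was found and the value was set to 3 UMIs. Rgs1 was 19.0-fold higher in C1 than in C4. Itgae (3.66-fold), Itga4 (3.55-fold), Cd69 (3.51-fold) and Itgb7 (1.52-fold) stayed under 4-fold. Without C1 Itga1 no longer had 50 UMIs, leaving Rgs1 at 9.28-fold as the 1 gene past 4-fold, and Cd69 fell to 1.85-fold. The ratio of Itga4 was 1.62 without C4 and 2.28 without C2, and that of Itgae was 2.40 without C3. Without C3 Itga1 was 114-fold higher in C1 than in C4, and without C4 Rgs1 was 10.8-fold higher in C1 than in C3.

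In Cd8-only T barcodes 4 of the 6 reached 4-fold, where 12.6% of 8912 genes did. Itga1 was 141-fold higher in C1 than in C4, Itgae 49.9-fold higher in C1 than in C3, Rgs1 19.5-fold higher in C1 than in C4 and Itga4 6.68-fold higher in C2 than in C3. Cd69 (2.49-fold) and Itgb7 (2.26-fold) did not reach it. Without C1 the ratios of Itga1, Itgae and Cd69 fell to 29.8, 9.43 and 1.53. Without C2 that of Itga4 was 3.85, under 4-fold, and without C3 the ratios of Itgae and Itga4 were 6.06 and 4.04. Without C4 Itga1 was 81.8-fold higher in C1 than in C3.

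In NK barcodes, where C1 and C2 alone had enough, 0 of the 6 reached 4-fold and 0.641% of 7024 genes did. Itgae had the widest NK ratio of the 6, at 3.25-fold higher in C1. The median log2 ratio of the 6 genes was 1.85 in Cd4-only T, 3.51 in Cd8-only T and 0.47 in NK barcodes, against 0.69, 0.70 and 0.20 over all genes tested.

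**Figure D2:**
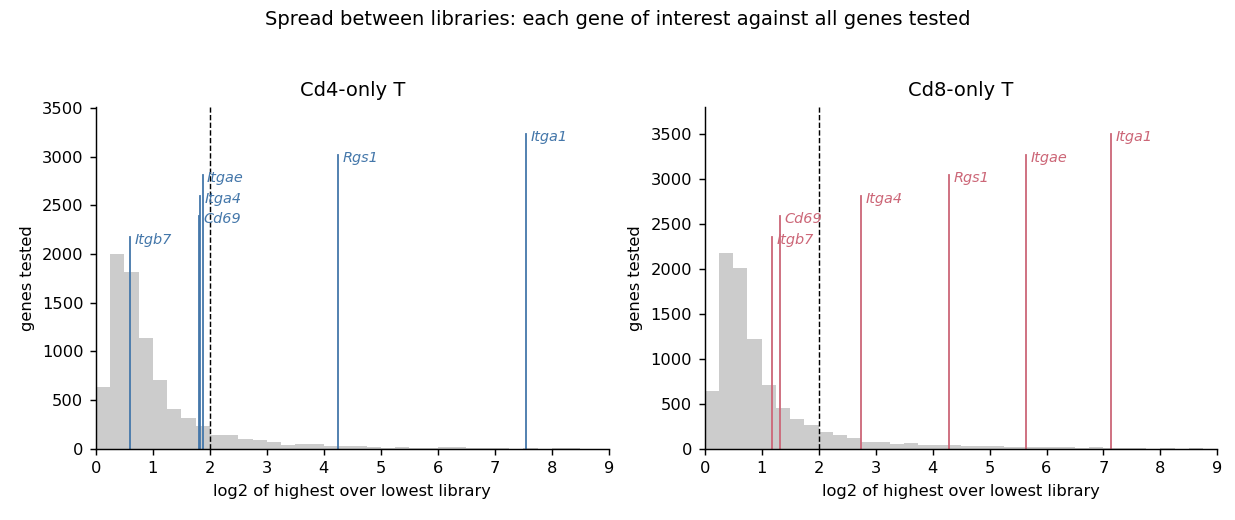
Number of genes tested (vertical axis) by the log2 ratio of the highest to the lowest library (horizontal axis) in Cd4-only and Cd8-only T barcodes, with a line for each of the 6 genes and a dashed line at 4-fold. Itga1 and Rgs1 lie past the dashed line in both classes, Itgae and Itga4 only in Cd8-only T barcodes, and the heights of the gene lines carry no value.

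Some Cd8-only T barcodes of C1 and C2 held both Itgae and Itga1, though each was more often found alone. At 3000 UMIs, 15.3% of Cd8-only T barcodes of C1 held both, 21.7% Itgae alone and 16.7% Itga1 alone. In C2 the shares were 2.42%, 6.73% and 5.57%. Among Cd8-only T barcodes of C2, Itgae was found in 30.3% of those with Itga1 (23.4% to 37.9%) and 7.32% of those without (6.19% to 8.58%). The joint share in C2 was 3.31 times the product of the single shares. In C1 it was 1.29 times, and the intervals of Itgae with and without Itga1 overlapped there. The ratio cannot exceed 1 over the larger single share, so it had less room in C1 and is not compared between libraries. In C4 none of the 123 barcodes with Itgae held Itga1, which was found in 3 barcodes only. In Cd4-only T barcodes both were found in 1 of 249 (C1) and 1 of 656 (C2), and in 0 in C3 and C4. In NK barcodes of C1 Itgae was found in 51.0% of those with Itga1 (46.3% to 55.7%) and 31.7% of those without (27.5% to 36.1%). NK barcodes of C2 held Itga1 without Itgae in 32.8%, both in 6.11% and Itgae without Itga1 in 7.42%.

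The chains that pair in integrins were set against the rate given by their single shares. For Itgae and Itgb7 the joint share over the product was 0.982, 1.30, 1.31 and 1.33 in Cd8-only T barcodes from C1 to C4. In C4, Itgae was found in 15.1% of Cd8-only T barcodes with Itgb7 and 7.48% of those without, with intervals that do not overlap. For Itga4 and Itgb1 it ranged from 0.926 to 1.01 in Cd8-only T barcodes. For Itga1 and Itgb1 it was 1.02 in C1 and 1.18 in C2. For Itga4 and Itgb7 it was 0.99 in C1 and 1.06 in C2 of the Cd4-only T barcodes. These ratios describe transcripts found at this depth and not pairing of the proteins.

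In Cd8-only T barcodes Itgae was split by some genes and not by others. Cxcr6 encodes a chemokine receptor of tissue T cells, and Ccr7 encodes a receptor that guides T cells into lymph nodes. With Cxcr6 as the split, Itgae was found in 44.8% of barcodes with it against 24.4% of those without in C1, and 11.5% against 5.41% in C2. In C3 and C4 the same split gave 1.07% against 1.11% and 14.9% against 10.9%. Klf2, which encodes a transcription factor of recirculating T cells, split Itgae in C2: it was found in 4.93% of barcodes with Klf2 (3.03% to 7.51%) and 10.2% of those without (8.78% to 11.8%). In C1 the shares were 23.5% and 43.7%, with intervals that just overlap, and in C4 they were 11.4% and 10.9%. With Ccr7 the intervals overlapped in each library, and Itgae was found in 11.9% of the C4 barcodes with Ccr7 and 10.5% of those without. In C4 77 of the 123 Itgae barcodes held Ccr7, as against 3 of 189 in C2, where Ccr7 itself was found in 26 barcodes.

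Zfp683 encodes Hobit, a transcription factor of resident lymphocytes. In Cd8-only T barcodes of C2 Itgae was found in 31.8% of the 66 barcodes with Zfp683 (20.9% to 44.4%) and 8.41% of those without. In C1 the shares were 56.8% and 32.5%, with intervals that just overlap. Itga1 in C2 was found in 24.2% and 7.46% by the same split.

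Among Cd4-only T barcodes the level of Itgae was higher in those with Foxp3, the transcription factor of regulatory T cells. Most of its UMIs lay in Foxp3 barcodes in C3 and C4, but not in C1 and C2. Its level with Foxp3 was 96.0 CPM for C2 (64.3 to 138), 83.7 for C3 (60.1 to 114) and 83.7 for C4 (66.1 to 105), from 43, 58 and 115 barcodes. Without Foxp3 it was 14.1, 0.755 and 1.07 CPM. The levels with Foxp3 overlapped in C2, C3 and C4, while the levels without were higher in C2 than in C3 and C4. C1 held 4 Foxp3 barcodes with 3 UMIs of Itgae, a level of 177 CPM (36.6 to 518) against 13.1 without Foxp3 (7.76 to 20.7). Foxp3 barcodes held 3 of 21 Itgae UMIs in C1, 29 of 80 in C2, 41 of 47 in C3 and 77 of 87 in C4. At equal depth 18 of the 19 Itgae barcodes of C4 held Foxp3, as did 7 of 12 in C3, 9 of 30 in C2 and 1 of 11 in C1.

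Other members differed by Foxp3 in some libraries. Itgb7 stood at 480.2 CPM with Foxp3 and 267 without in C2, at 421 and 298 in C3, and at 313 and 304.5 in C4, where the intervals overlapped. In C1 it stood at 1123 CPM with Foxp3 (676 to 1754, 4 barcodes) and 422 without. Its thinned C3 shares, 70.2% and 52.3%, had intervals that just overlap. The level of Itga4 was lower with Foxp3 in C2, at 325 against 431 CPM, and in C3, at 123 against 280.4. It did not differ beyond the intervals in C4 (119.6 and 119). At equal depth the C2 shares of Itga4 overlapped (64.1% and 65.8%), while its C3 shares, 23.4% and 44.7%, did not. The level of Rgs1 was lower with Foxp3 in C1, at 473 (204 to 932, 4 barcodes) against 3259.7 CPM, and in C2, at 990.2 against 1624 CPM. It was higher with Foxp3 in C3, at 517 against 284 CPM, and in C4, at 451 against 142 CPM. The order of the Rgs1 levels by Foxp3 was therefore opposite in C1 and C2 to that in C3 and C4. Its thinned shares overlapped in C1 (66.7% of 3 barcodes with Foxp3 and 92.3% without) and in C2 (82.1% and 81.7%). They did not overlap in C3 (68.1% and 36.1%) and C4 (50.5% and 22.6%).

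**Figure D3:**
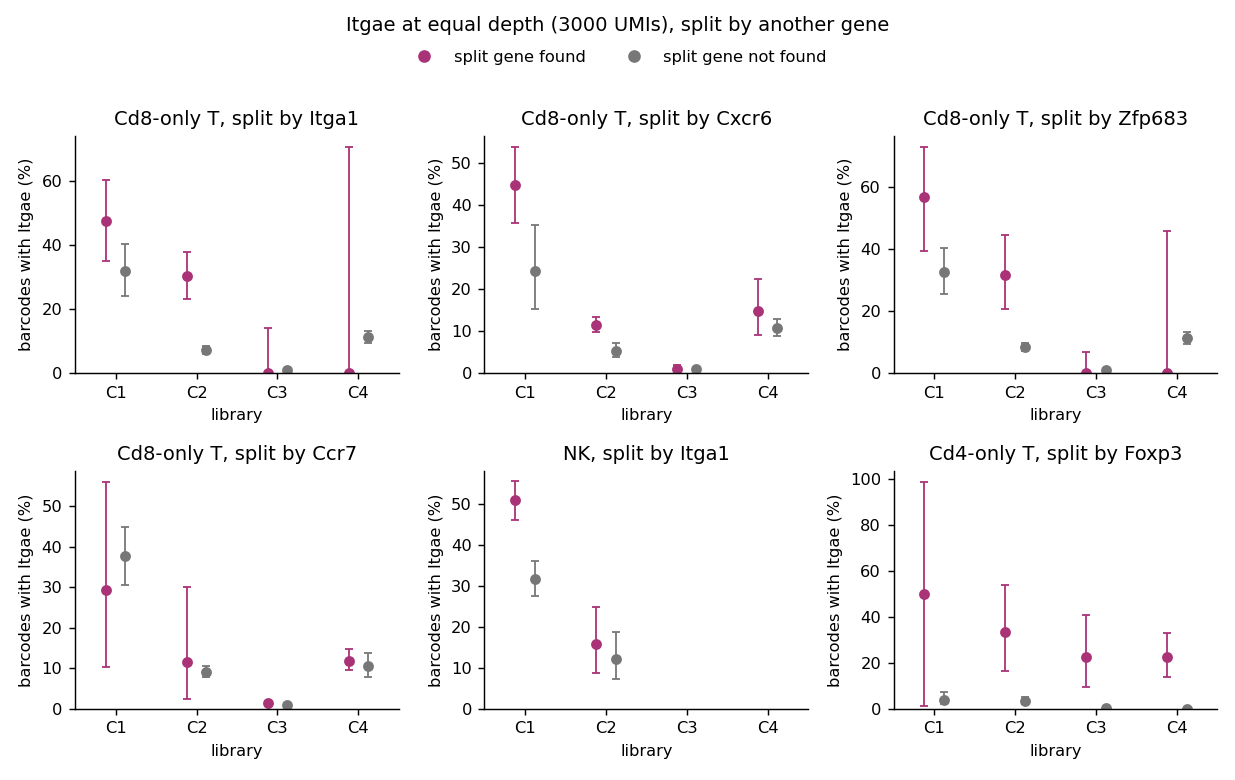
Percent of barcodes with Itgae at 3000 UMIs (vertical axis) in each library (horizontal axis), for barcodes with and without another gene, with exact 95% Clopper-Pearson bars. Itgae is found more often with Itga1, Cxcr6 and Zfp683 in Cd8-only T barcodes of C2, and the panel on Foxp3 shows Itgae with Foxp3 in C2, C3 and C4.

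The Cd8-only T barcodes were also divided into those with at least 1 Cxcr6 UMI and those with none, without thinning. Those with Cxcr6 numbered 163, 1616, 2110 and 261 barcodes from C1 to C4, and those without it 48, 678, 3307 and 847. For Itgae, barcodes with and without Cxcr6 held 269.8 and 96.5 CPM (C1), 46.6 and 15.8 CPM (C2), 4.83 and 4.59 CPM (C3), and 57.9 and 39.5 CPM (C4). The intervals overlapped in C3 alone, although the thinned shares of C1 (41.7% and 21.3%) and C4 (12.6% and 10.9%) overlapped too. Itga1 stood at 166 and 63.2 CPM in C1 and 34.9 and 18.6 in C2, and at 2.32 and 1.38 in C3 with overlapping intervals. Rgs1 stood at 1813 and 1042 CPM in C1 and 1510.5 and 885 in C2. In C1 its thinned shares, 88.5% and 72.3%, had overlapping intervals. Its levels were 115 and 114 CPM in C3 and 93.1 and 81.8 in C4, where the intervals overlapped.

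Cd69 ran the other way, with more in the barcodes without Cxcr6: 684 against 975 CPM in C1 and 384 against 662 in C2. In C3 (353 and 351 CPM) and C4 (275 and 306 CPM) its intervals overlapped, as did those of its thinned shares in C1 (73.1% and 85.1%). Itga4 did not differ beyond the intervals in C2 (444 and 448 CPM) or C4 (103 and 113). Its level was lower with Cxcr6 in C1 (235 and 336) and C3 (25.1 and 96.2). At equal depth its C1 shares were not lower with Cxcr6, at 48.1% and 44.7% with overlapping intervals, whereas its C3 shares were 5.49% and 14.6%. Itgb7 was higher with Cxcr6 in C1, at 371 and 256 CPM, and lower in C2, at 141 and 191. Its thinned C1 shares were 64.1% and 51.1%, with overlapping intervals. In C1 and C2 the Cd8-only T barcodes with Cxcr6 thus had higher levels of Itgae, Itga1 and Rgs1 than those without it, and lower levels of Cd69. For Itgae the level was higher with Cxcr6 in C4 too. The Cd4-only T barcodes did not all follow this order. In C1 Cd69 was higher with Cxcr6 there, at 979 against 725 CPM, as were Itga1 (80.6 and 23.8) and Rgs1 (3673 and 1823). Itgae stood at 12.3 and 23.8 CPM with overlapping intervals. The thinned C1 shares of Cd69 (81.0% and 68.3%) and Itga1 (15.9% and 6.67%) had overlapping intervals too. In C2 Cd69 was lower with Cxcr6 (393 and 611 CPM), Itgae (27.9 and 9.80) and Rgs1 (1874 and 1156) were higher, and the intervals of Itga1 overlapped (7.41 and 7.96).

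**Figure D4:**
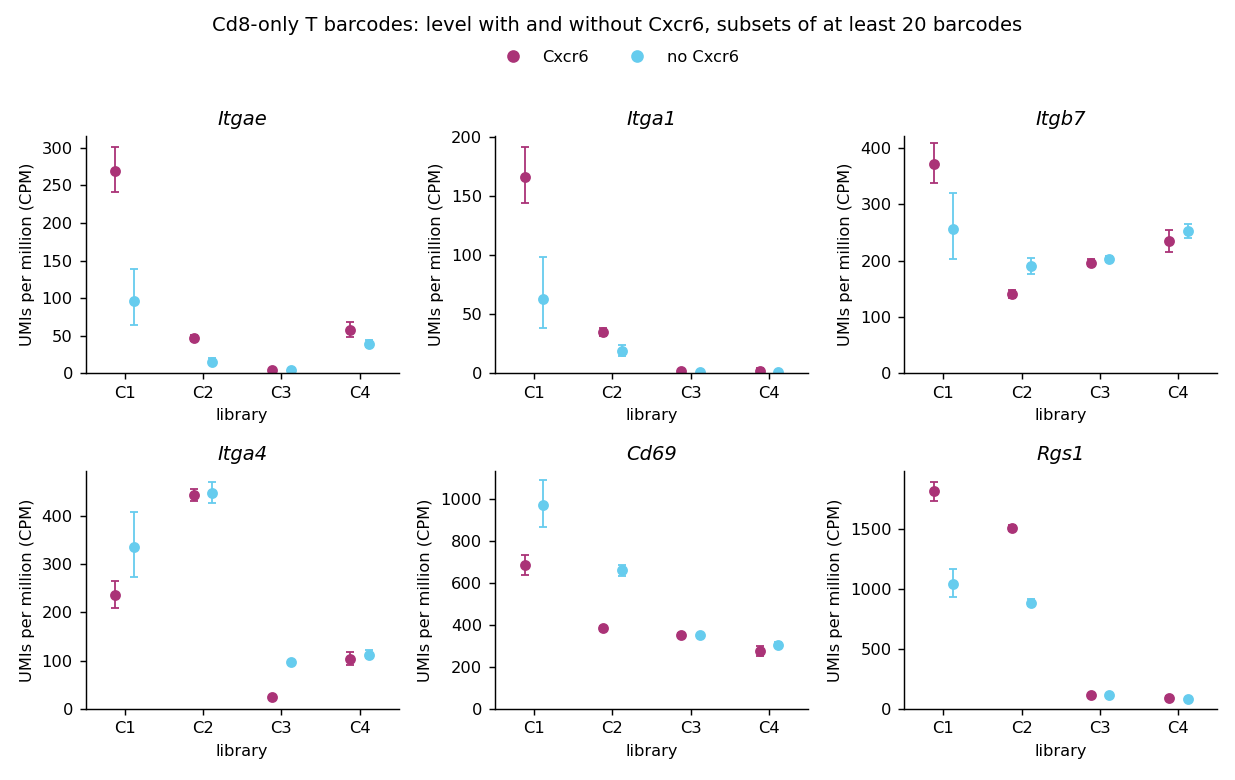
Level in CPM (vertical axis) of the 6 genes in Cd8-only T barcodes with and without Cxcr6, by library (horizontal axis), with exact 95% Poisson bars and subsets of at least 20 barcodes. Itgae, Itga1 and Rgs1 are higher in the Cxcr6 barcodes of C1 and C2, and Cd69 is higher in the barcodes without Cxcr6 of the same libraries.

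Cd69 and Rgs1 were found together at the rate of their single shares: the joint share over the product lay between 0.98 and 1.02 in each of the 10 classes and libraries with enough barcodes. Where both genes are found in most barcodes, as in Cd4-only T barcodes of C1 (77.9% and 92.0%), this ratio can hardly leave 1. It cannot show there whether the genes go together. S1pr1, the exit receptor that CD69 protein holds back, did not split Cd69 transcripts: in Cd8-only T barcodes Cd69 was found in 58.3% with S1pr1 and 60.5% without in C2, 58.0% and 56.4% in C3, and 46.0% and 49.0% in C4. At 2000 UMIs the C2 ratio of joint share to product in Cd8-only T barcodes moved from 0.966 to 1.30. The C4 ratio moved from 0.964 to 0.823, so the result for S1pr1 depended on depth. Klf2, which encodes a factor that drives S1pr1, did split Cd69 in C2, with 73.2% against 57.2% in Cd8-only T and 74.9% against 55.6% in Cd4-only T barcodes. It did not do so in Cd4-only T barcodes of C1, where the shares were 78.3% and 77.7%. Rgs1 was found in 86.7% of Cd8-only T barcodes of C2 with Cxcr6 (84.7% to 88.5%) and 72.2% of those without (68.9% to 75.3%).

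Cd69 moved with the early response genes, 15 transcripts such as Junb, Fos and Atf3 that cells raise within minutes of handling or stimulation. Their sum from C1 to C4 was 19887, 8797, 4150 and 5000 CPM in Cd4-only T and 10483, 5348, 2746.5 and 3456 CPM in Cd8-only T barcodes, and 15252 (C1) and 8563 (C2) in NK barcodes. The barcodes of each class and library were ranked by their share of these UMIs, and the lowest and the highest parts of 3 equal parts compared. Between these parts Cd69 went from 634 to 1197 CPM (C1), 271 to 827 (C2), 189 to 459.7 (C3) and 209 to 330 (C4) in Cd4-only T barcodes. Cd8-only T values of Cd69 went from 515 to 1098 CPM (C1), 200.1 to 809 (C2), 269.7 to 450 (C3) and 224 to 409 (C4). In the lowest part Cd69 of Cd8-only T barcodes was lower in C2 than in C3 and C4, which turns the order of these libraries.

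Rgs1 moved by less than Cd69 in most, but not all, cases by the same split. It went from 3017 to 3394 CPM in Cd4-only T barcodes of C1 and from 1770 to 1254 in C2. Cd8-only T values of Rgs1 went from 1317 to 1806 CPM (C1), 1332 to 1377 (C2), 87.7 to 151 (C3) and 66.9 to 101 (C4). In Cd8-only T barcodes of C3 the proportional rise of Rgs1 was slightly larger than that of Cd69. C1 and C2 thus stayed above C3 and C4 in the lowest part. Itgae in Cd8-only T barcodes stood at 17.0 CPM in the lowest part of C2 and 61.0 in the highest, and did not differ in C4 (44.8 and 43.3). The part of early response transcription and of salivary RNA in the differences between libraries was not tested.

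**Figure D5:**
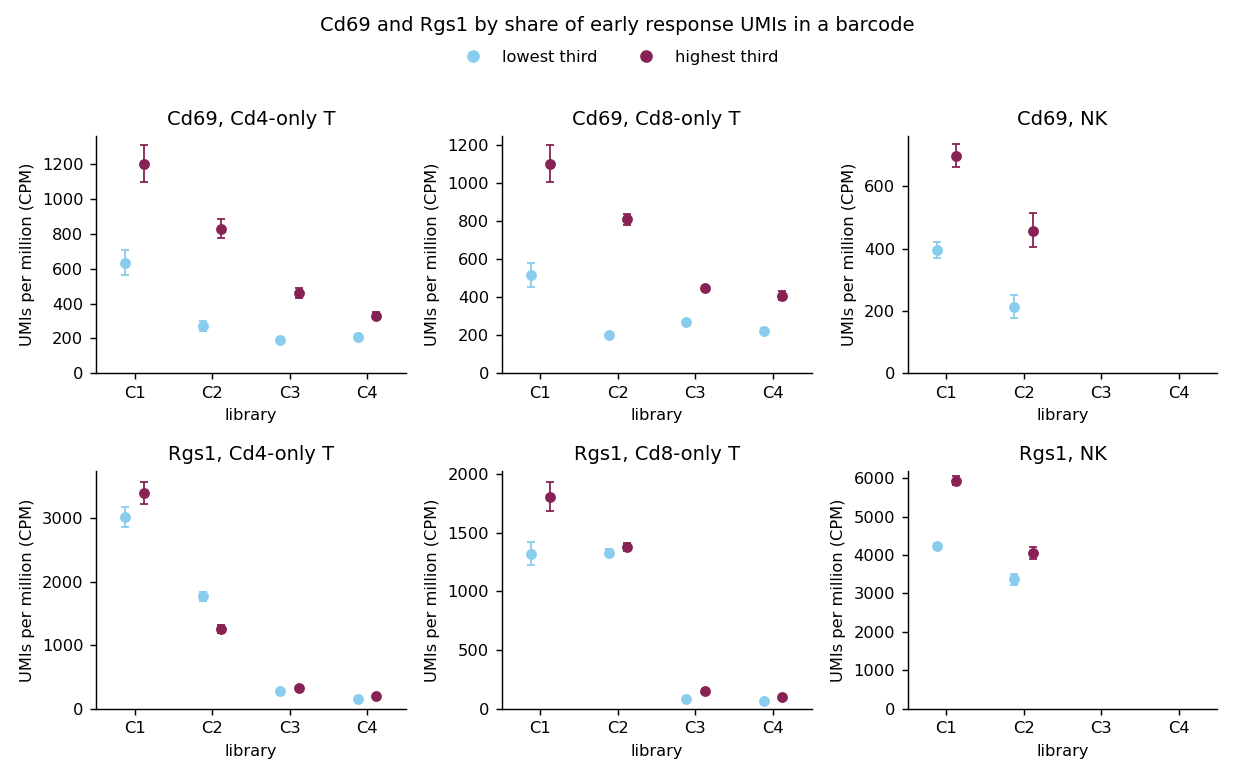
Level of Cd69 (top) and Rgs1 (bottom) in CPM (vertical axis) by library (horizontal axis) in the lowest and the highest of 3 equal parts of the barcodes by share of early response UMIs, with exact 95% Poisson bars; NK barcodes of C3 and C4 are too few to show. Cd69 is higher in the highest part of each class and library shown, and Rgs1 keeps C1 and C2 above C3 and C4 in both parts.

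The other genes of these pathways were counted from lists, beside 11.3% of all genes tested past 4-fold in Cd4-only T, 12.6% in Cd8-only T and 0.641% in NK barcodes. Of the other leukocyte integrins 3 of 7 tested reached 4-fold in Cd4-only T and 4 of 9 in Cd8-only T barcodes. Itgb1, the beta 1 chain, stood at 438, 524, 608 and 61.9 CPM in Cd4-only T and 444, 349, 234 and 72.2 in Cd8-only T barcodes, lowest in C4 of both. Itgb2, the beta chain of LFA-1, stood at 431, 584, 256 and 205 CPM in Cd8-only T barcodes. Itgb8, whose integrin activates TGF-beta, stood at 0.685, 15.5, 0.296 and 0.229 CPM in Cd8-only T barcodes. Itgav, its alpha partner, stood at 48.6, 122, 11.4 and 15.2 CPM there, so both were highest in C2.

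Of the residency genes 10 of 11 tested reached 4-fold in Cd4-only T barcodes, with 7 highest in C1 and 3 in C2, and 10 of 13 in Cd8-only T barcodes, with 5 highest in C1, 4 in C2 and 1 in C4. Bhlhe40, a transcription factor of resident T cells, stood at 1380.1, 636, 211 and 20.3 CPM in Cd4-only T barcodes. Cxcr6 stood at 779.5, 365, 27.5 and 8.0 CPM there. The 1 residency gene highest in C4 was Ccr9, the chemokine receptor for gut homing, at 6.85, 0.508, 1.81 and 38.2 CPM in Cd8-only T barcodes. Cxcr3 was less spread, at 203, 172, 184 and 70.1 CPM.

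Of the exit and recirculation genes 2 of 7 reached 4-fold in Cd4-only T barcodes, both highest in C4, and 7 of 8 in Cd8-only T barcodes, with 1 highest in C3 and 6 in C4. Ccr7 stood at 147, 52.7, 181 and 482 CPM in Cd4-only T barcodes. Klf2 stood at 604, 154, 578 and 725 CPM in Cd8-only T barcodes, lowest in C2. S1pr5, another exit receptor, reached 8.87 CPM in Cd8-only T barcodes of C3 and 0.0726 in C2. Each of these 3 genes was lowest in C2 in the class given, and Klf2 of C1 lay between C3 and C4.

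TGF-beta, which induces Itgae in T cells, had 2 of 7 pathway genes past 4-fold in Cd4-only T and 1 of 8 in Cd8-only T barcodes, the latter near the share of all genes tested. Tgfb1 itself stood at 348, 215, 141 and 149 CPM in Cd4-only T barcodes, and Skil, a feedback inhibitor, at 308, 122, 25.4 and 49.9. Of the relatives of Rgs1, 2 of 6 in Cd4-only T and 3 of 6 in Cd8-only T barcodes reached it. Rgs16 stood at 70.5, 327, 3.85 and 2.64 CPM in Cd8-only T barcodes, high where Rgs1 was high. Rgs10 stood at 199.2, 36.5, 194 and 255 CPM there, lowest in C2. Early response genes reached 4-fold in 11 of 15 cases in Cd4-only T and 8 of 15 in Cd8-only T barcodes, all highest in C1, and salivary genes in 12 of 12 in both. In NK barcodes the counts were 0 of 8 other integrins, 0 of 9 residency, 0 of 4 exit, 0 of 8 TGF-beta, 0 of 7 RGS, 3 of 15 early response and 4 of 12 salivary genes.

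Of the ligand genes, Cdh1, which encodes the E-cadherin bound by the Itgae chain, was itself found in the lymphocytes. NK barcodes held 195 CPM (C1) and 132 CPM (C2), and Cd8-only T barcodes 109, 24.7, 3.45 and 1.38 CPM from C1 to C4. Cd4-only T barcodes held 10.1, 8.91, 0.355 and 0.195 CPM, and B barcodes of C1 held 4.03 CPM. NK and Cd8-only T barcodes of C1 therefore held more Cdh1 than Cd4-only T barcodes of the same library, as they held more Itgae and Itga1. Epithelial barcodes, for which Cdh1 is a class marker, stood at 53.1 CPM in C1 and 65.9 in C2. Vcam1 and Fn1, ligands of the alpha 4 chain, stood at 113 and 64.2 CPM in macrophage barcodes of C2, and Col4a1, a collagen IV chain, at 37.3 CPM in epithelial barcodes of C2.

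Genes with the most similar pattern were ranked by Pearson's r of log2(CPM + 1) over 15 profiles of a class in a library with at least 100 barcodes, among 11509 genes. These values are a description, since profiles of 1 library share its depth and free RNA. Itgae was most like Fhl2 (0.91), Zfp683 (0.89) and Pld3 (0.89). Itga1 was most like Cdh1 (0.96), Calca (0.94) and Zfp683 (0.94), so Zfp683 stood on both lists. Itgb7 was most like Gm11131 (0.92), Tle3 (0.91) and Kcnab2 (0.90), and Itga4 most like Susd2 (0.89), Dcun1d4 (0.89) and Dlg2 (0.88). Cd69 was most like Adam8 (0.89), Dusp5 (0.86) and Ly6g5b (0.86). Rgs1 was most like Metrnl (0.97), Btg2 (0.97) and Tmem273 (0.95), of which Btg2 is an early response gene. Among the 6 themselves r was 0.79 for Itgae with Itga1, 0.81 for Itga1 with Rgs1, 0.56 for Cd69 with Rgs1 and 0.32 for Itgae with Itgb7.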

How the data were processed

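CD45+ leukocytes of mouse submandibular glands and draining lymph nodes were sequenced as single cells. The deposited values are raw UMI counts for each gene in each barcode, empty droplets included. Cell Ranger 4 wrote the matrices per the file headers, whereas STAR 2.7.10a, build mm10 and Cell Ranger 6.1.2 are named in the submitters' processing notes. Per the labels' protocols libraries followed BD Rhapsody, while the design text names 10x. The T cell receptor libraries were not analysed here.

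The 6 genes and the gene lists were chosen with earlier results of these data known. Barcodes were filtered at 500 UMIs, 300 genes and 10% mitochondrial UMIs. T barcodes had at least 2 Cd3 UMIs and at most 1 UMI over Cd79a, Ms4a1, C1qa, Csf1r and Ncr1; NK barcodes had at least 2 UMIs over Ncr1, Klrb1c and Klre1. B barcodes had at least 2 UMIs over B cell genes including Cd79a, Cd79b and Ms4a1, macrophage barcodes 2 over C1qa, C1qb, C1qc, Csf1r and Adgre1, and epithelial barcodes 2 over Epcam, Krt8, Krt18, Krt19 and Cdh1 with no Ptprc. Thinning drew 3000 UMIs per barcode with seed 0. Levels are summed UMIs per 1000000 UMIs of the class. CPM counts 3' ends, so levels are not compared between genes. Doublets were not removed: Scrublet called 218, 4, 2 and 116 barcodes, under 0.5% in C2 and C3, where it did not work. Genes named beside the 6 are their partners and ligands, the list gene with the most UMIs and the one with the largest ratio per T class, and the 3 genes most like each; Cxcr6, Ccr7, S1pr1, Klf2, Foxp3 and Zfp683 served as splits, and the division of levels by Cxcr6 alone was chosen after the data were seen. 1 gene of the exit list is not reported here. Positions and promoters are from RefSeq, build GRCm38.p6. Python 3.11.15, numpy 2.4.6, scipy 1.17.1, pandas 2.3.3, scanpy 1.11.5, leidenalg 0.10.2 and matplotlib 3.10.9 were used, and the scripts were tested on simulated data.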

Additional observations from a re-analysis of the deposited data

How the results depend on the processing

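The counts of genes past 4-fold (2, 4 and 0 of the 6) were unchanged with a limit of 1000 UMIs, a 5% limit on mitochondrial UMIs, a looser Cd3 rule, classes from clusters, salivary genes left out of the total, the top 5% of doublet scores left out, a minimum of 20 UMIs, or the lowest of 3 equal parts by early response UMIs (added after seeing the data). With each library left out in turn, also added after seeing the data, the counts ranged from 1 to 2 in Cd4-only T and from 3 to 4 in Cd8-only T barcodes. Of 60 levels, 0 moved beyond counting error with the 1000-UMI minimum, 1 without high doublet scores, 3 without salivary genes, 8 with classes from clusters, 29 as a mean of barcode CPM and 38 in that lowest part. Itga1 in Cd4-only T barcodes of C2 stood at 13.0 CPM as a mean of barcodes, against 7.64. Over all alternatives 4 of 544 compared pairs of libraries changed order, all in that lowest part. Calling a gene found at 2 UMIs moved 57 of 60 shares. Thinning to 2000 UMIs moved 43 of 60 thinned shares and 15 joint ratios, against 263 that did not move. No paired analysis was possible because the libraries carry no replicate numbers and are not tied to groups. The 19 and 21 NK barcodes of C3 and C4 limit what can be said of NK cells there.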

Other observations

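T barcodes with neither Cd4 nor Cd8a or Cd8b1 transcripts, 195, 270, 496 and 768 in number from C1 to C4, held Itgae and Itga1 at levels near those of the Cd8-only T barcodes in C1 and C2. Itgae stood at 235 CPM (C1, 207 to 267), 34.6 (C2), 7.75 (C3) and 32.5 (C4). Itga1 stood at 135 CPM (C1) and 30.6 CPM (C2), and at 1.37 and 0.998 in C3 and C4, from 3 and 4 UMIs. C1 was the highest library for both genes, and C4 lay above C3 for Itgae only.

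Macrophage barcodes held Itgae in 3.05% of 2884 barcodes in C1 and 0.437% of 458 in C2. Itgae was therefore near background there, while Rgs1 was at its highest of the classes read in C1, at 5891 CPM.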
